A study of Mus musculus with 28 samples.

Results

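Smooth muscle and myoepithelial contractile genes were followed as a set of 10 genes chosen by name: Acta2, Actg2, Myh11, Mylk, Tagln, Cnn1, Cald1, Lmod1, Des and Myocd. They make up 10 of the 18194 genes measured here, and 21 of the 34958 probe sets with 1 listed gene. Whole tissue RNA from female Balb/c athymic nude mice was read on Affymetrix arrays, with 11 samples of primary tumor (PT), 9 of lung metastasis (LungMets), 3 of normal mammary gland (NMG) and 3 of normal lung parenchyma (NL). The tumors had grown in hosts of 8 weeks of age from 50000 cells put into a mammary gland. The cells were of JygMC(A), a line from a mouse mammary carcinoma whose tumors seed the lung without further help, and carried GFP and luciferase reporters by the methods. According to the labels PT were taken at day 30 and LungMets at day 50, while the methods give 20 to 30 days for PT. By the methods normal mammary gland and normal lung came from 3 nude mice of 6 to 8 weeks. JygMC(A) cells grown as a monolayer (Monolayer) and as 3D spheres (Spheres) gave 1 array each. In the methods 8 mice gave 1 or 2 pieces of each tumor tissue. The methods give these mice, and the 3 of normal tissue, for tissue frozen for laser microdissection. They do not say which mice gave the arrays. Arrays may therefore share a mouse, within PT or LungMets and between them, and n counts samples.

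Contractile cells pull on their surroundings by sliding actin filaments against myosin. In the mammary gland this program is carried by the smooth muscle of vessels and by myoepithelial cells, which squeeze milk from the alveoli, and in the lung by vascular and airway smooth muscle. Fibroblasts that turn into myofibroblasts take up part of it. Calcium binds calmodulin, calmodulin switches on myosin light chain kinase, and phosphorylated myosin then grips the filament. Serum response factor and its partner myocardin are known to switch on many of these genes by way of a short motif called the CArG box.

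The set falls into filament proteins, the motor and its kinase, proteins that bind and restrain the filament, and a regulator. Acta2 encodes smooth muscle alpha-actin (chr19:34240336-34255585) and Actg2 encodes smooth muscle gamma-actin (chr6:83512909-83536251). Myh11 encodes smooth muscle myosin heavy chain (chr16:14194527-14292188) and Mylk encodes myosin light chain kinase (chr16:34745199-35002436). Tagln, or transgelin, is an actin-bundling protein (chr9:45929628-45936058). Cnn1, or calponin, (chr9:22099221-22109221) and Cald1, or caldesmon, (chr6:34598495-34775469) bind actin and hold back the motor. Lmod1, or leiomodin, starts new actin filaments (chr1:135324813-135368065). Des is desmin, the intermediate filament of muscle (chr1:75360292-75368579), and Myocd is myocardin (chr11:65173608-65269989). Positions are those of RefSeq genes on GRCm38.p6, and the build behind the array design was not given in the sources used here.

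Promoters of 6 of the 10 genes were found in the RefSeq table, 7 windows in all, since Cald1 has a pair of starts. Tagln, Myh11, Actg2 and Myocd had no entry. The windows reach from 250 bases before a start to 50 after it, and they were read for the CArG box, which has the same pattern on both strands. An exact CArG box was in 0 of the 7 windows and in 1.63% of all 32851. With up to 1 mismatch a match was in 3 of 7 windows, or 42.9%, and in 21.1% of all. The windows with a match belong to Acta2, Lmod1 and the first start of Cald1. Their 250 bases before the start are shown 5′ to 3′ on the strand of the gene, because Acta2 and Cald1 differed widely between Monolayer and Spheres while Lmod1 did not. Capitals mark each 10-base match with 1 mismatch to the CArG box.
Acta2, chr19:34255374-34255623, minus strand: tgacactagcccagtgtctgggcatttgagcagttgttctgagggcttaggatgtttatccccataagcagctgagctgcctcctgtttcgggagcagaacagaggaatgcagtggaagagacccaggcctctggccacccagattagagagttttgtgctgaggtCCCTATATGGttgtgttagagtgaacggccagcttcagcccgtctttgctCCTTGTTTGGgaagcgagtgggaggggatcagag
Cald1, chr6:34598254-34598503, plus strand: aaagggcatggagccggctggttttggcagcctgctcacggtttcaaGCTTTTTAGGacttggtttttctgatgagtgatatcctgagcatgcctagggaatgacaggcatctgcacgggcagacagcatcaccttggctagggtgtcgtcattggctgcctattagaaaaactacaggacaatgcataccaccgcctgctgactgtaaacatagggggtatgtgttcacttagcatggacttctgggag
Lmod1, chr1:135324563-135324812, plus strand: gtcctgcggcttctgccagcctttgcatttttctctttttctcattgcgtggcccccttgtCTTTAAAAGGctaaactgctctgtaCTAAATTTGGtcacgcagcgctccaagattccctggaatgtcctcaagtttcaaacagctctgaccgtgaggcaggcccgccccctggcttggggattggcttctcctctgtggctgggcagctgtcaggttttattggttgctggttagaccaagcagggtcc
The matches of Acta2 began 84 and 34 bases before the start, that of Cald1 203 bases before it, and those of Lmod1 189 and 164 bases before it. The RefSeq gene record of Acta2 reaches beyond the start used for this window. A match describes letters in a window, and binding was not measured here.

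Values are log2 values made by the authors with RMA, so 1 unit is a 2-fold difference in signal. Array medians lay from 5.00 to 5.18, and 3 Y-linked genes, a reference for low signal in these female mice, averaged from 2.86 to 3.23 on the tissue arrays. Each gene was read from its brightest probe set. Acta2, Mylk, Tagln, Cald1 and Des lay above the array median on 28 of 28 arrays with that probe set, Actg2 on 24, Myh11 on 15, Lmod1 on 12, Cnn1 on 6 and Myocd on 0. The levels of Myocd therefore sit at the low end of the scale in every sample. The name of the Acta2 probe set, 1416454_s_at, ends in a mark that the array's maker uses for probes shared between transcripts, so signal of closely related actins was not separated from it. The brightest Cald1 probe set has the same mark.

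Of the 26 tissue arrays, 2 lay closer to the mean of another group over all genes than to their own. PT replicate 5 correlated at 0.990 with the mean of LungMets and at 0.976 with that of PT, and its mean over 7 lung epithelium markers was 11.5 against a median of 5.13 in PT. Its closest single array was LungMets replicate 5, at r of 0.994, and the reverse held too. The lung marker mean of LungMets replicate 5 was 11.4. Whether these arrays came from the same tissue was not tested. LungMets replicate 9 correlated at 0.985 with PT and at 0.971 with LungMets, and its lung markers averaged 6.93 against a median of 11.8. NMG replicate 1 also had more lung marker signal, 8.13, than the 5.13 and 5.86 of the other NMG. PT replicates 7 and 3, with lung marker means of 7.85 and 6.28, lay above the PT median as well. Lung markers averaged 13.3 or above in NL. Adipocyte markers, from the fat pad, averaged 11.8 to 12.3 in NMG and at most 8.67 in any other tissue array. Labelled dates split the arrays into 4 batches. The first held 4 PT, 4 LungMets and both cell line arrays, the second 7 PT and 5 LungMets, the third NL and the fourth NMG. A difference between a normal tissue and any other group therefore cannot be told apart from its date batch.

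**Figure D1:**
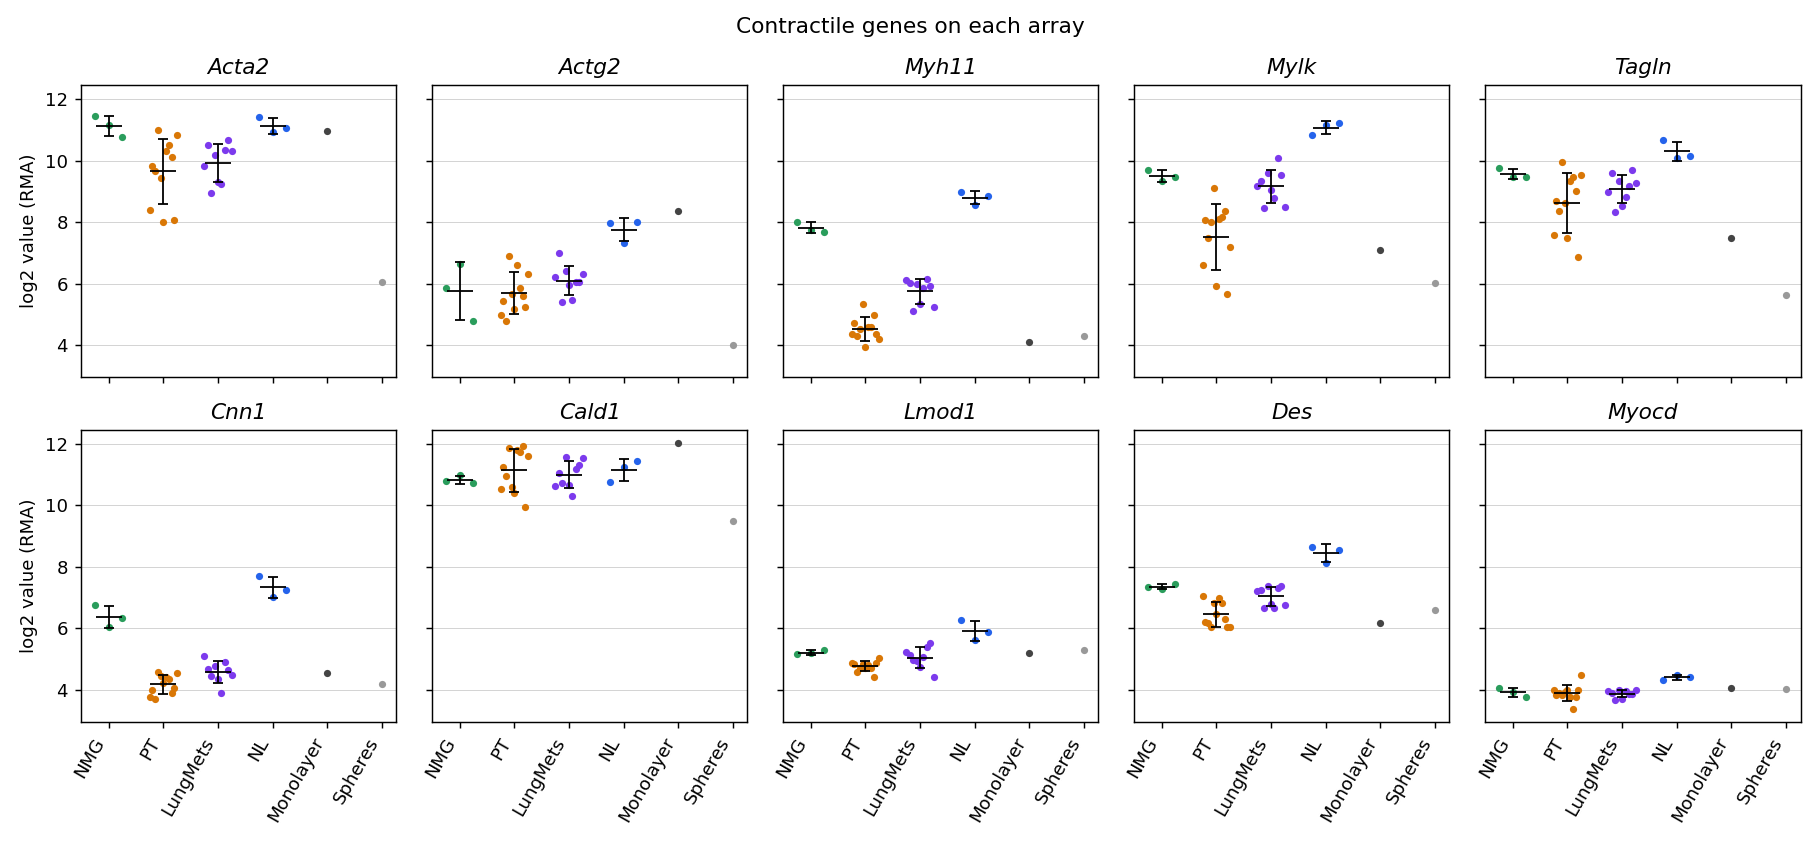
Log2 values (RMA) of the 10 contractile genes on each array, read from the brightest probe set of each gene. Points are arrays, and the bars give the mean and SD of NMG (n = 3), PT (n = 11), LungMets (n = 9) and NL (n = 3). Myh11 and Cnn1 of PT and LungMets lie below every NMG and NL array, while Cald1 overlaps among all 4 tissues.

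Primary tumors were compared with normal mammary gland to ask which contractile genes differ between the tumor and the tissue it grew in. Limma called 6 of the 10 genes lower in PT and 0 higher, at an adjusted p under 0.05, where 21.0% of all genes were called lower and 26.7% higher. At an unadjusted p under 0.05 limma gave 7 lower and 0 higher. The median difference was −0.92 over the 10 genes and 0.09 over all genes. Myh11, Mylk, Cnn1, Lmod1 and Des of PT lay below every NMG sample, 5 of 10 genes, where 16.0% of all genes did. In bulk RNA fewer cells of a type and less RNA per cell cannot be told apart.

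The motor separated the tissues by the widest margin of the set. Myh11 measured 8.03, 7.76 and 7.70 in the 3 NMG samples, and in PT it ranged from 3.93 through a median of 4.54 to 5.34. The groups did not overlap, and the PT median lay below the array medians. The difference was −3.29 ± 0.229 (SE), with an adjusted p of 2.14e-11 by limma. The highest PT value, 5.34, belonged to PT replicate 5. Its kinase Mylk measured 9.71, 9.33 and 9.48 in NMG and from 5.66 through 8.02 to 9.10 in PT, again without overlap, and differed by −1.97 ± 0.490 (limma adjusted p = 0.00175). The highest Mylk value of PT was also that of replicate 5. A further Mylk probe set, 1425505_at, gave −2.48 (limma adjusted p = 0.00119). The third, 1425504_at, gave 0.15 ± 0.124 (limma adjusted p = 0.334) and lay above the array median on 5 of 28 arrays.

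The smooth muscle actins took different courses. Acta2 measured 11.45, 11.16 and 10.79 in NMG, and PT spread from 8.03 through 9.83 to 10.99. The groups overlapped, with 9 of 11 PT samples below every NMG sample, and limma gave −1.48 ± 0.505 (adjusted p = 0.0184). Without NMG replicate 1 the difference was −1.32 with an adjusted p of 0.0877 by limma, and without NMG replicate 2 it was −1.46 at 0.0586. In a fit of PT and NMG alone the adjusted p was 0.0503. Actg2 measured 5.86, 6.66 and 4.79 in NMG and from 4.81 through 5.62 to 6.91 in PT. NMG spanned nearly the whole range of PT, and the difference of −0.07 ± 0.383 was not called, with a 95% interval from −0.86 to 0.72.

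Among proteins that bind the filament, calponin fell and caldesmon did not. Cnn1 measured 6.75, 6.04 and 6.34 in NMG and from 3.72 through 4.22 to 4.60 in PT. The groups were separate, and limma gave −2.19 ± 0.211 (adjusted p = 7.42e-09), with PT at low signal. Tagln measured 9.76, 9.47 and 9.49 in NMG and from 6.87 through 8.69 to 9.96 in PT. PT replicate 4 stood above every NMG sample and 9 PT samples below, and the difference of −0.94 ± 0.445 missed the threshold (limma adjusted p = 0.0835). Without PT replicate 4 it was −1.08 with an adjusted p of 0.0376.

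Cald1 measured 10.81, 10.98 and 10.72 in NMG and from 9.94 through 11.23 to 11.92 in PT, with 6 PT samples above every NMG sample and 4 below. On this brightest probe set, 1424769_s_at, the difference was 0.31 ± 0.342 (limma adjusted p = 0.481). The 4 other Cald1 probe sets, fitted beside all probe sets, were each called higher in PT. They gave 1.63 for 1424768_at (adjusted p = 0.00251), 0.91 for 1424770_at (0.0285), 0.79 for 1433147_at (0.0288) and 0.35 for 1433146_at (0.0298). The last lay below the array median on every array. With the mean over its probe sets Cald1 was called higher, at 0.80 (limma adjusted p = 0.00979). All 5 caldesmon probe sets thus had higher means in PT, and they differed in whether the test was passed.

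Lmod1 and Des were lower in PT by smaller amounts. Lmod1 measured 5.16, 5.19 and 5.30 in NMG and from 4.43 through 4.82 to 5.05 in PT, and limma gave −0.45 ± 0.163 (adjusted p = 0.0261). Its values sit close to the array median, and without NMG replicate 1, 2 or 3 the difference was −0.47, −0.46 or −0.41 with adjusted p of 0.0572, 0.0644 and 0.107. Des measured 7.35, 7.28 and 7.44 in NMG and from 6.04 through 6.31 to 7.06 in PT (−0.90 ± 0.214, limma adjusted p = 0.00117). The highest Des value of PT came from replicate 1, which also had the highest mean over 13 skeletal muscle markers of that group, 7.66 against a median of 4.66, and skeletal muscle contains desmin too. The part of that in its Des value was not tested. Myocd measured 4.07, 3.93 and 3.77 in NMG and from 3.40 through 3.91 to 4.47 in PT, a difference of −0.02 at low signal.

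A wider list of 29 measured genes of smooth muscle contraction gave 11 lower and 5 higher in PT by limma, with a median of −0.40. The called genes with the largest differences were Synpo2, an actin-binding protein of muscle, at −2.45, Myl9, the regulatory light chain of smooth muscle myosin, at −2.06, Tpm2, a tropomyosin, at −1.94, and Pde5a, which breaks down cyclic GMP, at −1.82. Markers of the cells that carry the program were read in the same comparison, where 21.0% of all genes were called lower and 26.7% higher. The pericyte and fibroblast counts lie not far from the share called lower. Of 16 myoepithelial genes 6 were called lower and 1 higher, led by Trp63, the master regulator of basal epithelium, at −2.41. Col17a1, a hemidesmosome collagen, differed by −2.34, while Itgb4 was the 1 called higher. Of 10 pericyte genes 3 were lower and 1 higher, with the potassium channel subunit Abcc9 at −2.44 and Rgs5 at −1.87. The mean over the pericyte list ranged from 6.41 to 7.30 in PT and from 7.56 to 7.68 in NMG, and that over the myoepithelial list from 5.98 to 6.87 and from 6.53 to 7.09. Adipocyte genes were lower for 6 of 6, with a median of −5.13 and list means from 5.53 to 7.52 in PT and from 11.8 to 12.3 in NMG. Endothelial genes were lower for 5 of 8, with list means from 4.59 to 7.56 and from 7.38 to 7.65. Fibroblast genes were lower for 3 of 12, with list means from 8.69 to 10.995 and from 10.65 to 10.87. The part of these cell types in the differences of the contractile genes was not tested.

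**Figure D2:**
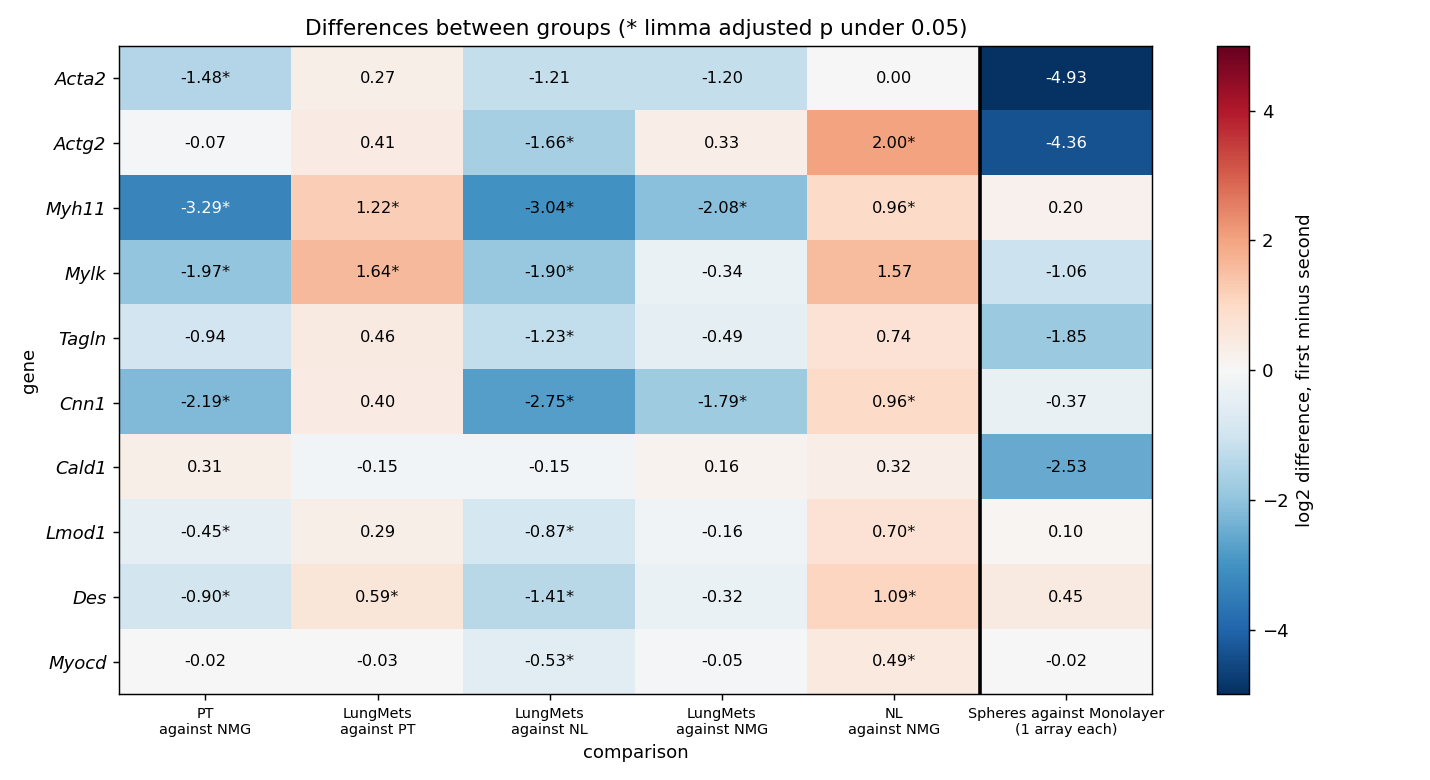
Log2 differences of the 10 genes (rows) in 5 comparisons of tissues by limma and in Spheres against Monolayer (columns), with the first group minus the second printed in each cell and an asterisk where the adjusted p was under 0.05. The column at the right has 1 array per group and no test. Myh11 has the lowest value in PT against NMG, −3.29, and Acta2 in Spheres against Monolayer, −4.93.

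The log2 differences of the set were not of equal size. Each gene's difference was set against that of Acta2 on the same arrays, with 18 exact two-sided permutation tests chosen after the values had been seen. Their p-values therefore describe these values and give no independent support. Different probe sets were not put on a common scale, and most Myh11 and all Cnn1 values of PT lay below the array medians. In PT against NMG, Myh11 was lower by 1.82 more than Acta2 (−1.82, exact permutation p = 0.00549, adjusted 0.0327). This p is the smallest that 364 regroupings allow. Cald1 differed from Acta2 by 1.79 in the other direction with the same p, and Tagln by 0.53 (exact permutation p = 0.011, adjusted 0.033). Actg2 and Myocd, at 1.40 and 1.46, passed too (exact permutation p adjusted to 0.0424 and 0.0495). They themselves differed by −0.07 and −0.02, Myocd at low signal, so these results mostly restate the difference of Acta2. Cnn1 at −0.71, Mylk at −0.50, Lmod1 at 1.03 and Des at 0.57 missed the threshold (exact permutation p adjusted to 0.312, 0.431, 0.148 and 0.491). High Acta2 came without high Myh11 in the PT samples at the top of its range. PT replicate 4, with the highest Acta2 of PT at 10.99, had Myh11 at 4.54, and PT replicate 11, with the next highest at 10.83, had 4.19. The 3 lowest Acta2 values of PT, 8.03, 8.09 and 8.40, came from replicates 6, 10 and 1, which also held the 3 lowest values of Tagln and of Cald1 in that group.

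**Figure D3:**
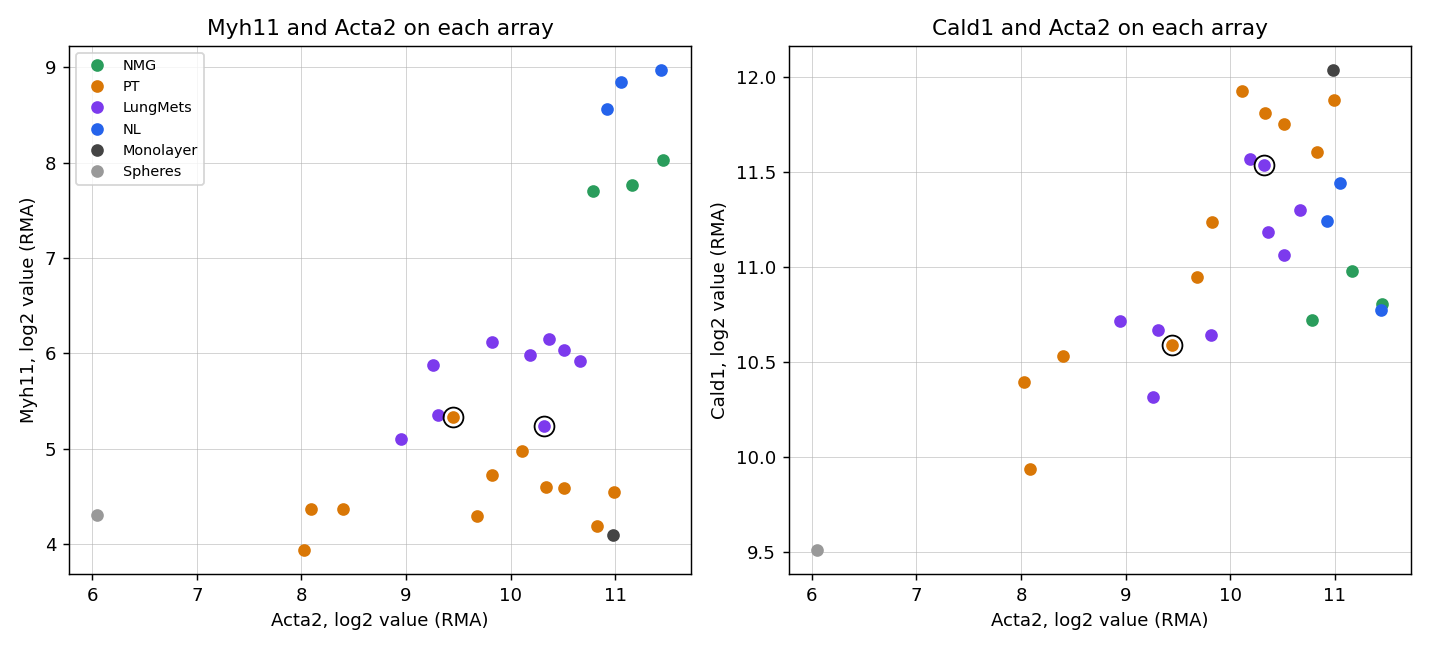
Log2 values (RMA) of Myh11 (left) and Cald1 (right) against Acta2, with 1 point per array and colors for groups. Black rings mark PT replicate 5 and LungMets replicate 9. On the left every PT and LungMets array has less Myh11 than any NMG or NL array, and Monolayer has Acta2 of 10.98 with Myh11 of 4.10. On the right PT samples with more Acta2 have more Cald1.

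Lung metastases were compared with primary tumors to ask how the program differs between the sites of growth. Limma called 3 of the 10 genes higher in LungMets and 0 lower, where 9.02% of all genes were called higher and 6.14% lower. At an unadjusted p under 0.05 the counts were 5 and 0. The median over the 10 genes was 0.40 and that over all genes −0.02. No gene of the set was free of overlap between the groups (0 of 10, against 0.110% of all genes).

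Myh11 ranged from 5.10 through 5.92 to 6.15 in LungMets against 3.93 through 4.54 to 5.34 in PT. In 7 of 9 LungMets it was above every PT sample, and the difference was 1.22 ± 0.158 (limma adjusted p = 0.000119). Mylk ranged from 8.48 through 9.17 to 10.09 in LungMets and from 5.66 through 8.02 to 9.10 in PT (1.64 ± 0.338, limma adjusted p = 0.00175). PT replicate 5 was the highest PT sample for both genes, and every other PT sample lay below every LungMets sample. Des ranged from 6.67 through 7.21 to 7.38 in LungMets against 6.04 through 6.31 to 7.06 in PT (0.59 ± 0.148, limma adjusted p = 0.00821).

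Without PT replicate 5 and LungMets replicate 9, calls over all 18194 genes rose from 2759 to 3671. In the set the differences were then 1.36 for Myh11, 1.88 for Mylk and 0.66 for Des, and 5 genes were called. The 2 gained were Cnn1, at 0.44 (limma adjusted p = 0.0484), and Lmod1, at 0.37 (0.0117). With all arrays Cnn1 was at 0.40 ± 0.146 (adjusted p = 0.0632) and Lmod1 at 0.29 ± 0.112 (0.0894). Leaving out 1 array was enough for these calls: Lmod1 was called without LungMets replicate 9 (0.37, adjusted p = 0.0119), and Cnn1 without LungMets replicate 6 (0.49, 0.0178) or without PT replicate 4 (0.44, 0.0439), 5 (0.43, 0.0478) or 11 (0.44, 0.04999). Within the first date batch Myh11 differed by 1.33 (limma adjusted p = 0.0104), Mylk by 1.59 (0.0311) and Des by 0.75 (0.107). Within the second they differed by 1.14 (0.205), 1.68 (0.224) and 0.47 (0.308), so each kept its direction within both batches while the calls were lost in the second, where limma called 0 of 18194 genes and 2670 had an unadjusted p under 0.05.

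The actins, Tagln, Cald1 and Myocd did not pass the test on their brightest probe sets. Acta2 ranged from 8.95 through 10.18 to 10.67 in LungMets, inside the range of PT, and differed by 0.27 ± 0.348 (limma adjusted p = 0.656, 95% interval −0.44 to 0.99). Actg2 differed by 0.41 (adjusted p = 0.33), Tagln by 0.46 (0.348), Cald1 by −0.15 (0.735) and Myocd by −0.03 (0.882). The other Cald1 probe sets had lower means in LungMets too. Of them 1433147_at was called (−0.63, limma adjusted p = 0.0358), while 1424768_at was at −0.74 (0.0904). The interval of Acta2 leaves room for a difference of nearly 1 unit, so these values do not show equal levels.

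Of the wider list of 29 genes of smooth muscle contraction, limma called 15 higher in LungMets and 0 lower. They were led by Fhl1, a LIM domain protein of muscle, at 3.34, Pde5a at 2.91, Ppp1r14a, an inhibitor of myosin phosphatase, at 2.13, and Itga8, an integrin of contractile cells, at 2.05. Markers of normal lung moved in the same comparison: 7 of 7 lung epithelium genes and 7 of 8 endothelial genes were called higher in LungMets. The mean over the lung list ranged from 6.93 to 12.19 in LungMets and from 4.74 to 11.5 in PT, and that over the endothelial list from 6.40 to 8.83 and from 4.59 to 7.56. Pericyte genes were called higher for 1 of 10 and lower for 1, myoepithelial genes likewise for 1 of 16 each. Fibroblast genes were lower for 5 of 12 and higher for 1, with list means from 8.40 to 10.66 in LungMets and from 8.69 to 10.995 in PT, and adipocyte genes lower for 3 of 6 and higher for 1. Myh11, Mylk and Fhl1 were each higher in NL than in LungMets as well, and the part of host lung and of these cell types in the difference from PT was not tested.

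Against normal lung, the tissue around the metastases, limma called 8 of the 10 genes lower in LungMets and 0 higher, where 22.4% of all genes were called lower and 23.8% higher. At an unadjusted p under 0.05 the counts were 9 and 0. For 9 genes, all but Cald1, every LungMets sample lay below every NL sample, against 17.4% of all genes. The median over the 10 genes was −1.32 and that over all genes 0.05.

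Myh11 measured 8.97, 8.57 and 8.84 in NL against at most 6.15 in LungMets, and differed by −3.04 ± 0.234 (limma adjusted p = 3.48e-10), an 8.23-fold difference. Cnn1 measured 7.72, 7.04 and 7.26 in NL against at most 5.12 (−2.75 ± 0.216, limma adjusted p = 4.91e-10). Both gaps exceeded the spread within either tissue. Set against Acta2, Myh11 differed by −1.84 and Cnn1 by −1.54 more, and Cald1 by 1.05 the other way, each at the smallest exact permutation p that 220 regroupings allow, 0.00909 (adjusted 0.0327). The other 6 genes missed the threshold against Acta2, with exact permutation p adjusted to values from 0.109 for Mylk to 0.836 for Tagln.

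The kinase and the second actin fell by lesser amounts. Mylk measured 10.83, 11.16 and 11.23 in NL against at most 10.09 in LungMets (−1.90, limma adjusted p = 0.00311). Actg2 measured 7.97, 7.32 and 8.00 in NL, and the highest LungMets value was 7.01 (−1.66 ± 0.392, limma adjusted p = 0.00118). Des differed by −1.41 (adjusted p = 1.16e-05), Lmod1 by −0.87 (0.000144) and Myocd by −0.53 (0.00161), the last at low signal throughout. Tagln measured 10.67, 10.10 and 10.16 in NL and differed by −1.23 ± 0.455 (limma adjusted p = 0.0298). Its call was lost without NL replicate 1, 2 or 3, with differences of −1.05, −1.33 and −1.30 (adjusted p = 0.129, 0.0557 and 0.0639).

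Acta2 measured 11.44, 10.92 and 11.05 in NL, above all 9 LungMets, yet the difference of −1.21 ± 0.517 missed the threshold (limma adjusted p = 0.0587). It passed without LungMets replicate 8 (−1.30, adjusted p = 0.0459). It also passed without PT replicate 1, 4, 6 or 10, arrays that enter this value through the shared error alone (adjusted p = 0.0499, 0.0481, 0.0392 and 0.0405), and in the fit of LungMets and NL alone (0.0113). Cald1 measured 10.77, 11.24 and 11.44 in NL and differed by −0.15 ± 0.350 (adjusted p = 0.751).

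Of the wider list 22 of 29 genes were called lower in LungMets than in NL and 0 higher, led by Ppp1r14a at −3.64, the intermediate filament protein Synm at −2.98, Foxf1, a transcription factor of lung mesenchyme, at −2.66, and Pln, a brake on the calcium pump, at −2.43. Normal lung also carried cardiac muscle, which in mice sheathes the pulmonary veins. The mean over 10 cardiac genes was 8.34 to 8.90 in NL, 4.26 to 6.79 in LungMets, 4.38 to 5.20 in PT and 3.90 to 4.08 in NMG, and limma called 9 of them lower in LungMets than in NL. Desmin, myocardin and phospholamban are also made by cardiac muscle, and its part in their differences was not tested. NL replicate 3 had skeletal muscle markers at 7.81 against 4.98 and 5.23 in the other NL, while its Des, 8.56, lay between theirs. Endothelial genes were lower for 8 of 8, pericyte genes for 5 of 10 and adipocyte genes for 5 of 6, and their part was not tested either.

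Against normal mammary gland, LungMets had 2 of the 10 genes called lower, Myh11 and Cnn1, and 0 higher, where 17.9% of all genes were called lower and 23.1% higher. At an unadjusted p under 0.05 limma gave 3 lower and 0 higher. Myh11 differed by −2.08 ± 0.234 (limma adjusted p = 1.45e-07) and Cnn1 by −1.79 ± 0.216 (4.20e-07). Acta2 of all 9 LungMets lay below NMG too, at −1.20 ± 0.517 (adjusted p = 0.0653), which made 3 genes without overlap against 14.4% of all genes. Without PT replicate 6 or 10 its adjusted p was 0.0442 and 0.0456. The other differences lay from −0.49 for Tagln to 0.33 for Actg2. Mylk, lower in PT than in NMG by 1.97, differed by −0.34 here (adjusted p = 0.62). Its other probe sets disagreed in direction. The dim 1425504_at was called higher in LungMets (0.34, limma adjusted p = 0.0342), and 1425505_at gave −0.64 without a call (0.427). This comparison shares its NMG samples with that of PT. Of the wider list 7 of 29 genes were called higher and 4 lower, with a median of 0.01. Lung epithelium genes were higher for 7 of 7, adipocyte genes lower for 6 of 6 and fibroblast genes lower for 5 of 12. Myoepithelial genes were lower for 5 of 16 and higher for 1, and pericyte genes lower for 3 of 10 and higher for 2, while the endothelial median was 0.17. The part of these cell types in the differences was not tested.

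The effect of tumor in lung, LungMets against NL, was also set against that in mammary gland, PT against NMG, in the same fit. Limma called this difference for 2 of the 10 genes, Actg2 and Myocd, both on the lower side, where 9.68% of all genes were called lower and 10.1% higher. Actg2 gave −1.59 ± 0.548 (adjusted p = 0.0412) and Myocd −0.51 ± 0.182 (0.0479), and both calls were lost when certain single arrays were left out, NMG replicate 3 among them (−1.10 at adjusted p = 0.206 and −0.44 at 0.151). For Acta2, Myh11 and Mylk it was 0.27, 0.25 and 0.07, with SE of 0.723, 0.328 and 0.701. It lay below 0, without a call, for Cnn1 (−0.56), Des (−0.50), Cald1 (−0.46), Lmod1 (−0.42) and Tagln (−0.28). The median was −0.44 over the 10 genes and −0.01 over all genes. Of the other Mylk probe sets, 1425504_at was called lower (−0.68, limma adjusted p = 0.00784) and 1425505_at was not (−0.19, 0.931). The former lay above the array median on 5 of 28 arrays.

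The normal tissues differed as well, which sets the background for both tumor sites. Limma called 6 of the 10 genes higher in NL than in NMG and 0 lower, where 14.3% of all genes were called higher and 14.5% lower. At an unadjusted p under 0.05 the counts were 7 and 0. For 8 genes the NL samples lay above every NMG sample, where 23.6% of all genes did. Actg2 had the largest difference, 2.00 ± 0.480 (limma adjusted p = 0.00223). Des followed with 1.09 (0.00275), Myh11 with 0.96 (0.0119), Cnn1 with 0.96 (0.00681), Lmod1 with 0.70 (0.00987) and Myocd with 0.49 (0.0222).

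Acta2, in contrast, was at 11.14 ± 0.268 (SD, n = 3) in NL and 11.13 ± 0.335 in NMG, a difference of 0.00 with a 95% interval from −1.30 to 1.31. Mylk was at 1.57 (limma adjusted p = 0.0579) and passed without PT replicate 5, 6 or 10 (0.0375, 0.0369 and 0.0278) and in the fit of the normal tissues alone (0.000162). It passed in 8 of the 12 settings tried beside leaving out single arrays. Its other probe sets were called higher in NL, 1425504_at by 0.87 (limma adjusted p = 0.000114) and 1425505_at by 2.03 (0.0444). Cnn1 lost its call without NL replicate 1 (0.77, adjusted p = 0.0524) or NMG replicate 2 (0.80, 0.052), and Lmod1 without NL replicate 1 (0.53, 0.0803). Myocd lost it without NL replicate 2 or 3 (0.45 and 0.48, adjusted p = 0.0773 and 0.0563) or NMG replicate 2 or 3 (0.49 and 0.41, 0.0561 and 0.0987). Of the wider list 15 of 29 genes were higher in NL and 0 lower, with Foxf1 at 4.95 and Itga8 at 4.77. Cardiac genes were higher in NL for 10 of 10 and endothelial genes for 8 of 8, with medians of 4.80 and 2.95. Adipocyte genes were lower for 6 of 6, with a median of −4.28, fibroblast genes lower for 6 of 12 and higher for 1, myoepithelial genes lower for 7 of 16 and higher for 2, and pericyte genes higher for 3 of 10 and lower for 2. The part of these cell types in the differences was not tested.

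Placed in order, the Myh11 means fell from NL (8.79) to NMG (7.83), LungMets (5.75) and PT (4.54), and limma called each neighboring pair different. Cnn1 ran in the same order, 7.34, 6.38, 4.59 and 4.19, but LungMets and PT were not called different. Mylk ran 11.07, 9.50, 9.17 and 7.53 on its brightest probe set, and there NMG and LungMets were not called different, nor were NL and NMG. Other settings did call NL and NMG different, and the probe set 1425504_at was called higher in LungMets than in NMG. Des ran 8.45, 7.36, 7.04 and 6.46, with NMG and LungMets not called different. For Acta2 NL and NMG shared a mean near 11.1, above LungMets at 9.93 and PT at 9.66, and of these only PT against NMG was called. Cald1 had means from 10.83 to 11.15 in the 4 tissues, with none of the 5 tested pairs called different on its brightest probe set. Averaging the probe sets of a gene, dim ones included, shrank several differences. For PT against NMG, Acta2 was then at −0.57 and Myh11 at −1.73, and both directions were kept.

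Over the 26 tissue arrays the genes outside the set whose levels were most like the mean standardized level of the 10 genes were Arhgap1, Vcl, Map3k3, Cdc42ep2 and Utrn, with Pearson's r of 0.950, 0.950, 0.949, 0.948 and 0.947. Vcl is vinculin, which links actin to the membrane, and Utrn is utrophin, a relative of dystrophin. These r describe arrays that include the differences between tissues. Each of the 5 genes had its highest mean in NL and its lowest in PT, as in Vcl with 11.51 in NL, 9.90 in NMG, 9.88 in LungMets and 9.27 in PT.

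Spheres and Monolayer were compared to ask how the tumor cells themselves differ with the form of culture, in the absence of host tissue. With 1 array each there is no test and no replicate check, and a gene was counted when it differed by more than 1 log2 unit. By that measure 5 of the 10 genes were lower in Spheres and 0 higher, where 5.21% of all genes were lower and 2.91% higher. The SD of the difference over all 18194 genes was 0.63.

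Acta2 was 10.98 in Monolayer and 6.05 in Spheres, a difference of −4.93 or 30.5-fold. Only 4 of 18194 genes had a lower value: the matrix genes Postn, Ltbp2, Col8a1 and Col11a1. Actg2 was 8.38 in Monolayer and 4.02 in Spheres, a difference of −4.36. The Spheres value lay below the array median, at low signal, so no fold is given for it. The Monolayer value of Acta2 lay inside the ranges of NMG and NL and that of Actg2 above every tissue array, while in Spheres both lay below every tissue array.

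**Figure D4:**
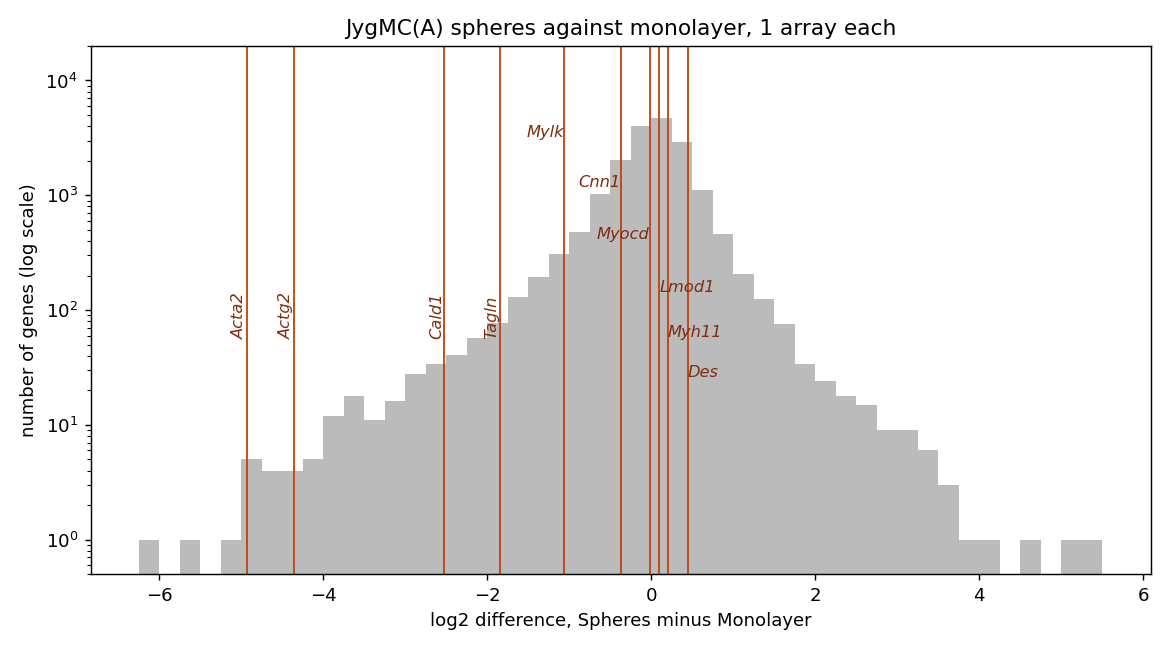
Number of genes (log scale) by log2 difference, Spheres minus Monolayer, for 18194 genes and 1 array per group, in bins of 0.25. Vertical lines mark the 10 contractile genes. Acta2 and Actg2 lie at −4.93 and −4.36, Cald1 and Tagln at −2.53 and −1.85, and Myocd, Lmod1, Myh11 and Des between −0.02 and 0.45.

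Cald1 was 12.03 in Monolayer and 9.51 in Spheres (−2.53), and the probe sets 1424768_at and 1424770_at gave −2.46 and −2.34. On the brightest probe set and on 1424770_at the Monolayer value was above, and the Spheres value below, every tissue array. On 1424768_at the Spheres value of 7.72 lay inside the tissue range of 6.82 to 10.13. On 1433147_at Monolayer was 5.78 and Spheres 4.90 (−0.88), both below the lowest tissue value of 5.98. The last Cald1 probe set, 1433146_at, gave −0.07 at low signal. Tagln was 7.48 and 5.63 (−1.85), and Mylk 7.11 and 6.04 (−1.06), with −0.97 and 0.27 on the further probe sets 1425505_at and 1425504_at. These 3 genes thus ran the same way as the actins at smaller differences on their brightest probe sets. Mylk was within 1 unit after a further quantile normalization (−0.99) and with the mean of its probe sets (−0.59), which leaves 4 genes past 1 unit in each. With the mean of probe sets Acta2 was at −1.67, since its other probe sets, below the array median on all 28 arrays, gave −0.20 and 0.13.

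The remaining genes of the set showed little difference. Cnn1 was 4.56 and 4.19 (−0.37), Lmod1 5.21 and 5.31 (0.10), Des 6.16 and 6.61 (0.45) and Myocd 4.05 and 4.03 (−0.02). Myh11 was 4.10 and 4.30 (0.20), below the array median on both arrays. Monolayer cells therefore had an Acta2 value as high as those of normal tissue beside Myh11 and Cnn1 at low signal, which the PT arrays with the most Acta2 also showed. Myocd was at low signal in Monolayer as in every sample, normal tissue included.

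Of the wider list 6 of 29 genes were lower in Spheres by more than 1 unit and 0 higher, with Myl9 at −3.16, the small heat shock protein Hspb6 at −2.53, Fhl1 at −2.13 and the tropomyosin Tpm1 at −2.08. Srf, which encodes serum response factor, was 7.97 in Monolayer and 8.45 in Spheres, and its cofactors Mrtfa and Mrtfb were 7.25 and 6.35, and 8.42 and 7.74. Of 13 genes of non-muscle actin and myosin 2 were lower by more than 1 unit, the calponin relatives Cnn3 and Cnn2, and 0 higher. Every gene of that list had a lower value in Spheres, from −1.09 for Cnn3 to −0.16 for Myl12b. The median over that list was −0.64, beside −0.72 over the 10 contractile genes and 0.03 over all genes. A lower value in Spheres was thus not particular to the smooth muscle genes. Among 12 fibroblast genes 4 were lower, with Postn, Sparc, Col3a1 and Col1a1, and 0 higher. Markers of endothelium and lung epithelium were past 1 unit for 0 genes, with list means in Monolayer and Spheres of 4.27 and 4.40 for endothelium and 5.21 and 5.41 for lung epithelium. Epcam of the tumor epithelium list was among the lower genes, at 5.62 in Monolayer and 3.98 in Spheres. The mean over that list was 5.73 in Monolayer and 5.29 in Spheres, below every tissue array, while PT ranged from 6.62 to 11.49.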

How the data were processed

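The authors normalized 28 Affymetrix arrays by RMA in Partek 6.6 (background correction, quantile normalization, summary per probe set) and deposited log2 values of 45101 probe sets. The build of the array design was not given in the sources used here. Arrays keep no read depth, so their number limits the precision. A probe set was named when the platform annotation gave 1 gene symbol (34958), while 932 had several and 9211 none listed. Each of 18194 genes was read from the probe set of highest mean on the 26 tissue arrays.

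Groups came from the labels. Limma 3.58.1 in R 4.3.3 (lmFit, eBayes) was fitted with 1 mean per group to all 26 tissue arrays, without batch or filter, two-sided, and p-values were adjusted by Benjamini-Hochberg across all genes, with calls at adjusted p under 0.05. The cell line arrays entered no fit. The labels call the samples biological replicates, and the p-values measure the spread between samples. The members, lists and tests were chosen with earlier results of these data known. All 10 members were named, and up to 4 called genes per list by size of difference. Some list genes were found under a newer symbol, and 1 gene of the wider contraction list was not measured. Tested on simulated data over 18194 genes, limma found 86.6% of genes shifted by 1 unit in PT against NMG, and 94% for LungMets against PT. For NL against NMG it found 77.6%. Of genes shifted by 0.5 units it found 40.3%, 71.6% and 16.4% in these comparisons. The simulation left 17994 genes unshifted, while in the data limma called 8672 in PT against NMG. Its rates need not carry over to the data. Alternatives covered probe set choice, a filter, centring, renormalization, date batch, replicate block, fits of 2 groups and left-out arrays. Python 3.11.15 and matplotlib 3.10.9 drew the figures.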

Additional observations from a re-analysis of the deposited data

Results flagged for a closer look

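The effect of tumor in lung (LungMets against NL) was set against that in mammary gland (PT against NMG) in the same limma fit. It differed for 2 of the 10 contractile genes, both lower in lung. At an unadjusted p under 0.05 the counts were also 2 lower and 0 higher. Actg2 was lower by 1.66 in LungMets than in NL and by 0.07 in PT than in NMG, a difference of −1.59 ± 0.548 (SE, limma adjusted p = 0.0412). Its NL samples were all above its NMG samples, by 2.00 on average. Without NMG replicate 3, the lowest Actg2 value of NMG, the difference was −1.10 (adjusted p = 0.206). The call was also lost without NL replicate 1 (−1.49, 0.102) or 3 (−1.47, 0.109), NMG replicate 1 (−1.63, 0.071), LungMets replicate 3, 5 or 6 (−1.50, −1.57 and −1.51) or PT replicate 8 or 11 (−1.57 and −1.53). Myocd gave −0.51 ± 0.182 (limma adjusted p = 0.0479) at low signal, and it was no longer called for 19 of the 26 single arrays left out. Over all 26 it ranged from −0.59 to −0.44.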

How the results depend on the processing

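Of 2270 values of single genes under other settings, 2137 kept direction and side of the threshold, 66 lost and 42 gained a call, and 25 that were never called changed sign. No called value reversed. With genes above the median mean alone, which leaves 5 of the 10 in the fit, the counts were 3 for PT against NMG, 4 for LungMets against NL, 0 for LungMets against NMG and 2 for NL against NMG, and 0 for the difference between tumor effects, where 0 also had an unadjusted p under 0.05. For LungMets against NMG, 1 of the 5 did. In PT against NMG this filter called 5342 of 9097 genes, so 3 of 5 is near the share over all genes. With 5 genes left, these counts are not read as a result about the set. Adding a fold over 2 left 2 in NL against NMG and 1 for the difference between tumor effects. For LungMets against PT, 5 were called without both arrays that stand apart, where 3671 of all 18194 genes were called. Within the second date batch 0 were called, where 3 had an unadjusted p under 0.05 and 0 of all 18194 genes were called. The difference between tumor effects had 1 gene called with the mean of probe sets, with every probe set fitted, in an ANOVA without moderation and without both arrays that stand apart. It had 0 without replicate 5 of PT and of LungMets, an alternative chosen after seeing the data, where 2 had an unadjusted p under 0.05, and 0 to 2 with single arrays left out.

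The labels do not say whether a replicate number marks a mouse. Deviations of same-numbered PT and LungMets correlated from −0.23 to 0.48, above 0.1 for 7 of 9 but not for every pair, and 1 of 9 correlated best with its own number, so whether the numbers pair the samples is not settled. With the replicate number as a block 5 genes of the set were called in LungMets against PT, where 2817 of all 18194 genes were called. NL and NMG had 3 arrays each, and date batch and normal tissue cannot be told apart.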
